A study of Mus musculus with 8 samples.

Results

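Cells cultured from mouse bone marrow and labelled as disseminated cancer cells (DCC) were compared with and without interferon-gamma. The comparison rests on 4 of the 8 libraries of the study, taken by their labels: 2 untreated cultures (replicates 1 and 2 of the control) and 2 cultures given interferon-gamma (replicates 1 and 2 of the treatment), with all 23478 gene lines of the count table. Per the labels the mice bore breast cancer that had spread to the marrow on its own, from which the cells were taken. The labels give the genotype as WT for all groups, and name no strain, age, dose or duration. A protocol text shared by all samples also lists TNF-alpha and anti-HER2 antibodies, but the labels of these 4 libraries name interferon-gamma or control alone. The 4 remaining libraries, cells of an early mammary lesion labelled neuT and the breast cancer cell line TUBO, 2 each, entered the fit, where they bear on the scaling, on the choice of genes tested and on the spread between replicates, and a few of their levels are given for reference. In what follows the cultures are called untreated 1 and 2 and treated 1 and 2.

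Luminal markers of mammary epithelium were at or near 0, while the summed basal markers were not. Epcam, Krt8, Krt18 and Cdh1, which mark mammary epithelium, and the receptor gene Erbb3 lay between 0 and 0.673 CPM (reads of a gene scaled to the library's gene counts times its TMM factor, a correction for composition) in all 4 marrow cultures, against 159 to 2694 CPM in the early lesion and TUBO libraries. Fn1, the gene of fibronectin, had 38195 and 40348 CPM in the untreated and 13467 and 32845 CPM in the treated cultures, and the osteoblast factor Runx2 had 325 and 346 CPM untreated and 67.8 and 91.9 CPM treated. The label names cancer cells, while these luminal markers of mammary epithelium were at or near 0. The 8 basal mammary markers summed to 96.2 and 107 CPM untreated and 111 and 132 CPM treated. In the early lesion and TUBO libraries the basal sums were 3.01 to 12.3 CPM. Of the 6 basal markers tested, 2 reached 5 CPM in a group, 1 called higher and 1 lower. Whether the cells came from the tumour was not tested, and they are called marrow cultures here. Gene counts per library ran from 15432210 to 28552291 in the 4 cultures. Untreated 1 stood apart: 49.2% of its reads lay outside annotated genes, against 21.9% to 31.0% in the other 3, and 47.7% of 1450 olfactory and vomeronasal receptor genes had a count there, against 11.9% in untreated 2 and 2% and 1.17% in treated 1 and 2. Early lesion 2 shared the trait, with 44.1% of reads outside genes and 63.7% of receptor genes with a count, so the fit was also run without both libraries. Decreases of genes under about 5 CPM therefore rest on a library with scattered low counts, and most genes described below lie above that level. The labels call the replicates biological, with no word on whether they came from separate mice. The p-values therefore measure the spread between replicate libraries, taken over all 4 groups of the fit and shared across genes.

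Interferon-gamma binds a receptor made of Ifngr1 and Ifngr2, whose kinases Jak1 and Jak2 pass the signal to the nucleus. Genes with gamma-activated sites (GAS) are then switched on, among them Irf1, whose product acts on interferon-stimulated response elements (ISRE). Complexes that hold Stat2 and Irf9 bind the ISRE as well. In many tissues the cytokine is known for raising antigen presentation, chemokines and GTPases against intracellular microbes, and in bone it is known as a brake on osteoclast formation.

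To show what such elements look like at genes that responded here, 7 promoter stretches are printed from RefSeq (GRCm38.p6), each from the gene's own strand and ending before its start site. Capitals mark matches to the GAS letters TTCNNNGAA or to the ISRE core GAAANNGAA, the latter searched on both strands, so that the core can read TTCNNTTTC. Each stretch shows only the group of matches nearest the start, so matches further upstream may be missing. Within the stretches printed, Irf1 and Icam1 hold a GAS match, and Igtp holds a GAS match followed by an ISRE core. Those of Gbp2, Ifit3, Isg15 and Socs1 hold only ISRE cores, which overlap in Isg15 and Socs1.
Irf1 (chr11:53769906-53769950, plus strand, 90 bases before the start): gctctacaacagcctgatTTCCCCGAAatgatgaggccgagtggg
Icam1 (chr9:21015880-21015924, plus strand, 42 bases before the start): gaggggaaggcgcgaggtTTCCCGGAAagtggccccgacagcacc
Igtp (chr11:58199493-58199548, plus strand, 45 to 34 bases before the start): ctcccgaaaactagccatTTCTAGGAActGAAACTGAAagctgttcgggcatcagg
Gbp2 (chr3:142620587-142620631, plus strand, 58 bases before the start): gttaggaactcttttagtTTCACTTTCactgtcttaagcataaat
Ifit3 (chr19:34583356-34583453, plus strand, 155 to 102 bases before the start): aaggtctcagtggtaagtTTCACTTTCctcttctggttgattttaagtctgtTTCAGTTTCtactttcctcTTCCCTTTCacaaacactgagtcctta
Isg15 (chr4:156200858-156200914, minus strand, 78 to 66 bases before the start): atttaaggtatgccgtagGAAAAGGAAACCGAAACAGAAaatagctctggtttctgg
Socs1 (chr16:10785587-10785637, minus strand, 83 to 77 bases before the start): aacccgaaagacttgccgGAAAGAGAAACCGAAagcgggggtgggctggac
Irf1, Icam1, Igtp and Gbp2 differed little between the treated cultures or were higher in treated 2, whereas Ifit3 and Isg15 were higher in treated 1. Irf1 had 10.8 and 16.6 CPM without and 865 and 1018 CPM with the cytokine. For Icam1, the ligand of leukocyte integrins, the values were 2.92 and 4.16 CPM untreated and 142 and 149 CPM treated. Igtp, a defence GTPase, went from 2.5 and 2.77 to 1380 and 1151 CPM. No untreated value overlapped a treated one for any of the 7 genes. Gbp2, of the guanylate-binding GTPases, had 6.64 and 11.3 CPM without and 1225 and 1708 CPM with treatment. The antiviral gene Ifit3 had 1.77 and 0.871 CPM untreated and 759.9 and 340.2 CPM treated, and the ubiquitin-like modifier Isg15 had 6.45 and 3.6 CPM untreated and 1001 and 456 CPM treated. Socs1, the feedback inhibitor described below, was the gene of the set with the smallest change. Of all 32851 RefSeq windows of 300 bases, 8.30% held the GAS letters and 8.56% the ISRE core. Only 385 of the 535 genes called higher by at least 4-fold had a window (72.0%), under the 80% needed, so a check of how often called genes hold the letters is void. A match describes the letters and shows no binding.

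Across the table, 2148 of the 17069 genes tested were higher and 1508 lower after interferon-gamma, at a Benjamini-Hochberg adjusted p under 0.05 in edgeR's quasi-likelihood test. Log2 changes below are fitted log2 fold changes, treated against untreated, with their standard errors (SE). That is 12.6% higher and 8.83% lower, the background against which the gene lists below are read. Calls depended on level: of the 10989 genes with at least 5 CPM in a group, 2096 were higher and 1209 lower. That larger share is the nearer background for lists whose members mostly reach 5 CPM. By at least 4-fold 535 genes were higher and 494 lower. The median log2 fold change was -0.20 over all genes tested and 0.09 over the 10989 genes with at least 5 CPM in a group. Of the calls, 1009 higher and 616 lower held in each of the 4 fits that leave out 1 marrow culture. Without untreated 1, 1193 genes were called higher and 827 lower, and without untreated 2, 1468 and 1011. Upper quartile scaling moved the median of all genes by a further -0.20 and turned the split to 1526 higher and 2221 lower (40.7% of calls higher, against 58.8%). Shifts of that size are not read as a direction.

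A group of genes was nearly silent before treatment and abundant after it. Below 1 CPM in both untreated cultures and at 10 CPM or more in both treated ones were 33 genes. All were called higher, which limits this far apart nearly fix. They include the chemokine genes Cxcl10, Cxcl11 and Ccl12, the nucleic acid sensors Zbp1 and Ifi205, the antiviral enzyme Oas1a, the class II gene H2-Aa, and Irg1, which makes itaconate. Irg1 went from 0.304 and 0.119 to 51.1 and 35.7 CPM. Serpina3f, of the serpin family of protease inhibitors, went from 0.304 and 0 to 89 and 83.1 CPM. Clic5, of the chloride intracellular channel family, went from 0.304 and 0.277 to 48.6 and 32.2 CPM. The reverse pattern was found for 10 genes, 8 of them called lower. Among these were Postn, a matricellular protein of bone surfaces, with 18.1 and 25.6 CPM untreated and 0.513 and 0.292 CPM treated, Gdf10, a BMP-like ligand, with 29.4 and 32.7 CPM untreated and 0.367 and 0.125 CPM treated, and Hpgd, which breaks down prostaglandins, with 63.5 and 108 CPM untreated and 0.953 and 0.167 CPM treated. The Gdf10 call was lost without treated 1 or treated 2 (adjusted p = 0.0608 and 0.0689, range over all settings 9.40e-30 to 0.0689, the smallest with no filter) and the Hpgd call without untreated 2 or treated 2 (adjusted p = 0.1 and 0.057, range 1.17e-81 to 0.1). Of the genes at 50 CPM or more without treatment none rose 16-fold, while 178 did so below that level. No link between starting level and response is read from this, since a gene of low level passes the filter mostly through the groups where it is high, and the share called higher ran the other way, from 2.85% of genes under 0.5 CPM to 19.1% of those at 50 to 100 CPM. CPM is not corrected for transcript length, so these bins order read numbers, not molecules.

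**Figure D1:**
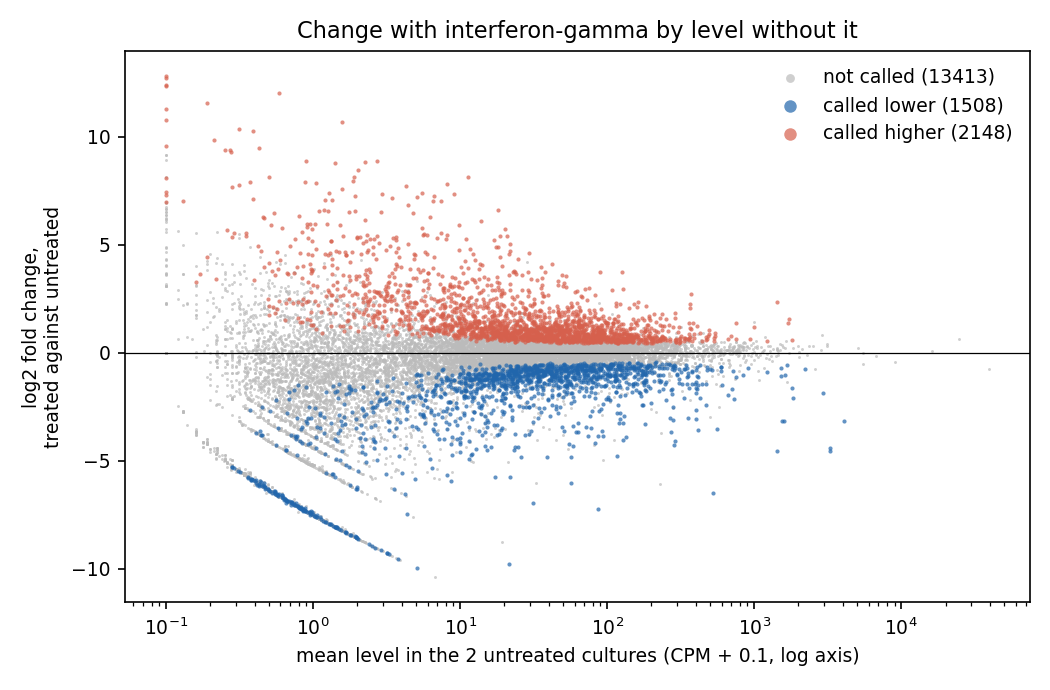
Log2 fold change (treated against untreated) of each of the 17069 tested genes against its mean CPM in the 2 untreated cultures, with 0.1 CPM added, on a log axis. Red points are the 2148 genes called higher and blue points the 1508 called lower; called increases of more than 4 log2 units are found only at under 50 CPM, and the slanting lines at the lower left are genes with few or no counts after treatment.

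The most abundant of the genes raised at least 4-fold were not all defence genes. The 10 highest after treatment were B2m, Gbp2b, Iigp1, Ccnd1, Gbp4, Cxcl10, Cyr61, Ifi44, Hmga2 and Egr1. Egr1, an immediate early factor, had 414 and 312 CPM without and 1166 and 1934 CPM with treatment (log2 change 2.09 ± 0.25, adjusted p = 0.000262). Ifi44 had 20 and 15.7 CPM untreated and 2220 and 1286 CPM treated (log2 change 6.62 ± 0.58, adjusted p = 0.000506). Cyr61, a matricellular target of YAP, had 401 and 333 CPM untreated and 808 and 2720 CPM treated, and its call was lost without untreated 1 or untreated 2 (adjusted p = 0.139 and 0.234, range 3.66e-24 to 0.234), without TUBO 1 or 2 (adjusted p = 0.065 and 0.067) and without early lesion 1 (adjusted p = 0.0536). Genes of other kinds were among those that fell. Sorcs2, a sorting receptor, had 37.2 and 41.1 CPM untreated and 1.54 and 1.21 CPM treated (log2 change -4.82 ± 0.23, adjusted p = 1.09e-06), Tmtc2, an enzyme of O-mannosylation, 59.1 and 58.5 CPM untreated and 3.7 and 2.21 CPM treated (log2 change -4.31 ± 0.27, adjusted p = 4.75e-06), and Sox6, a chondrocyte factor, 13.1 and 10.8 CPM untreated and 0.66 and 0.25 CPM treated (log2 change -4.67 ± 0.32, adjusted p = 9.25e-06). Mrvi1, a gene of smooth muscle relaxation, had 19.8 and 23.2 CPM before and 0.0367 and 0 CPM after treatment, the latter being at most 1 read per library.

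Markers of macrophages were higher in the treated cultures, as were many of the immune genes described below. Of 24 tested markers of macrophages and monocytes 17 were higher (median log2 fold change 3.07), and their summed level was 196 and 193 CPM in the untreated and 2584 and 1896 CPM in the treated cultures. Cd68, a lysosomal glycoprotein, had 19.1 and 17.1 CPM untreated and 163 and 138 CPM treated (log2 change 3.06 ± 0.20, adjusted p = 6.89e-06), and Mpeg1, a pore-forming protein of phagocytes, 20.6 and 22.7 CPM untreated and 673 and 482 CPM treated (log2 change 4.73 ± 0.35, adjusted p = 0.000188). Csf1r, the receptor that macrophages live by, had 18.5 and 16.9 CPM before and 193 and 147 CPM after treatment. Of 11 pan-leukocyte genes 6 were higher, with sums of 86.7 and 77.3 CPM and of 707 and 623 CPM, and in a fit of the 4 marrow cultures alone all 11 were. The pan-leukocyte sum was also 911 and 826 CPM in the early lesion and 603 and 541 CPM in the TUBO line. Its level alone therefore does not show leukocytes. The macrophage sum was 103 and 116 CPM in the early lesion and 81.2 and 114 CPM in TUBO. Ptprc (CD45), which marks leukocytes, was not called, with 7.24 and 2.69 CPM untreated and 56.4 and 42.3 CPM treated (adjusted p = 0.0633, or 0.00096 and 0.00132 without early lesion 1 or 2, with a call in 5 other settings too, range 4.09e-19 to 0.379), nor was Mrc1, a receptor of resident macrophages (8.77 and 7.68 CPM untreated and 5.39 and 4.96 CPM treated). In bulk RNA, more cells of a type and more RNA per cell cannot be told apart, and the part of macrophages in the changes of other genes was not tested. The 23 tested T and NK, B, neutrophil, erythroid and endothelial markers gave 0 calls in edgeR and 0 in DESeq2, with 1 at an unadjusted p under 0.05. No marker among these 23 reached a mean of 5 CPM in either group, a level below which few genes were called. DESeq2 also gave no adjusted p for 7301 genes. The 0 calls therefore do not show that these markers were unchanged. The summed level of T and NK markers was 0.0733 and 0.0834 CPM in the treated cultures. The macrophage count was 10 without untreated 1, without untreated 2 or without treated 1, and the Csf1r call was lost in each of these 3 fits (adjusted p = 0.0788, 0.14 and 0.0663) and in DESeq2 (adjusted p = 0.128, range 1.63e-41 to 0.14).

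Signalling genes changed unevenly along the pathway. Stat2 rose by more than 5 log2 units, the called receptor and kinase genes by less than 1, and the type I interferon receptor gene Ifnar1 fell. Of 13 receptor and JAK-STAT genes 5 were higher and 1 lower, with a median log2 fold change of 0.47. Stat2, the partner of Irf9, had 5.36 and 10.5 CPM untreated and 386 and 239 CPM treated (log2 change 5.28 ± 0.36, adjusted p = 4.53e-05). Stat6, which carries signals of interleukins 4 and 13, had 67 and 67.6 CPM untreated and 145 and 120.1 CPM treated (log2 change 0.97 ± 0.15, adjusted p = 0.0014). The treated and untreated cultures overlapped for neither of these genes. Stat3, the factor of the interleukin-6 family, was not called (log2 change 0.47 ± 0.16, adjusted p = 0.0686), but it was without treated 1 (adjusted p = 0.00605) and in DESeq2 (adjusted p = 0.0389, range 0.00605 to 1). Jak1 had 192 and 210.5 CPM untreated and 311 and 344 CPM treated, and Ifngr2 42 and 48.5 CPM untreated and 70.5 and 79 CPM treated. Jak2 (log2 change 0.18 ± 0.17) and the ligand-binding chain Ifngr1 (log2 change 0.30 ± 0.21) were not called. Ifnar1 had 123 and 119 CPM without and 79.2 and 78.4 CPM with treatment (log2 change -0.62 ± 0.14, adjusted p = 0.0102), while its partner Ifnar2 was not called (176 and 178 CPM untreated and 181 and 250.4 CPM treated) unless treated 1 was left out (adjusted p = 0.0357, range 0.0357 to 1). Without untreated 1 the calls of Jak1, Ifngr2 and Ifnar1 were lost (adjusted p = 0.074, 0.124 and 0.0706, in ranges over all settings, a test against a 2-fold change included, of 2.29e-05 to 1, 0.00414 to 1 and 0.00024 to 1), and the list held 2 higher and 0 lower.

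Many inhibitors that turn cytokine signals off were higher as well. Of 17 such genes 10 were higher (median log2 fold change 0.65). Ptpn6, the phosphatase SHP-1, had 1.64 and 2.93 CPM without and 33.1 and 36.4 CPM with treatment (log2 change 3.89 ± 0.28, adjusted p = 1.36e-05). Socs6 had 43 and 43.2 CPM untreated and 81.8 and 95.8 CPM treated, and Ptpn1, a phosphatase of Jak2, 54.1 and 51.3 CPM untreated and 87.3 and 126 CPM treated. Socs1 blocks Jak1 and Jak2 and is the main brake on this cytokine. Its level was 24.7 and 22.5 CPM without and 70.7 and 99.3 CPM with treatment (log2 change 1.85 ± 0.42, adjusted p = 0.0179). Socs3, which acts on interleukin-6 type receptors, had 34.9 and 38.2 CPM untreated and 107 and 353 CPM treated, the higher value in treated 2. Usp18, which removes Isg15 from proteins and blocks Ifnar2, had 1.03 and 1.35 CPM untreated and 302 and 104 CPM treated, here with treated 1 the higher. Ptpn2, a phosphatase of JAK kinases, was not called (79.9 and 73.2 CPM untreated and 122 and 84.1 CPM treated) unless treated 2 was left out (adjusted p = 0.00584, range 0.00584 to 1), nor was Cish, a target of Stat5 (2.43 and 1.39 CPM untreated and 2.86 and 2.75 CPM treated). The list held 5 higher without untreated 1 and 5 without untreated 2. In the first of these fits Socs1 and Socs3 were not called (adjusted p = 0.122 and 0.142), and in the second Socs1, Socs3 and Usp18 were not (adjusted p = 0.176, 0.213 and 0.0797). Over all settings their adjusted p ran over 5.25e-12 to 0.176, 3.03e-32 to 0.213 and 4.98e-132 to 0.0797, and Socs1 was also lost without treated 2 (adjusted p = 0.0973) and Socs3 without TUBO 1 or TUBO 2 (adjusted p = 0.0574 and 0.0564).

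Most interferon regulatory factors rose, several by large amounts. Of 9 family genes 6 were higher and 3 were not called, with a median of 3.42. Irf8, best known from myeloid cells and higher in the same cultures as the macrophage markers, had 1.7 and 2.73 CPM without and 101 and 96.3 CPM with treatment (log2 change 5.44 ± 0.26, adjusted p = 1.09e-06). Irf9, the DNA-binding part of the complex with Stat2, had 12.1 and 11.8 CPM untreated and 158 and 97.5 CPM treated (log2 change 3.42 ± 0.24, adjusted p = 1.14e-05). Irf2, which competes with Irf1 for its sites, had 46.5 and 51.5 CPM untreated and 202 and 157 CPM treated (log2 change 1.87 ± 0.18, adjusted p = 7.61e-05). Irf5 had 2.19 and 2.22 CPM untreated and 36.3 and 27.4 CPM treated, and Irf7, which switches on genes of interferon alpha and beta, 2.37 and 1.31 CPM untreated and 371 and 181 CPM treated. Irf3, which is regulated by phosphorylation, had 21.2 and 24.4 CPM untreated and 21.3 and 26.9 CPM treated and was not called. All 6 calls held with each marrow culture left out.

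**Figure D2:**
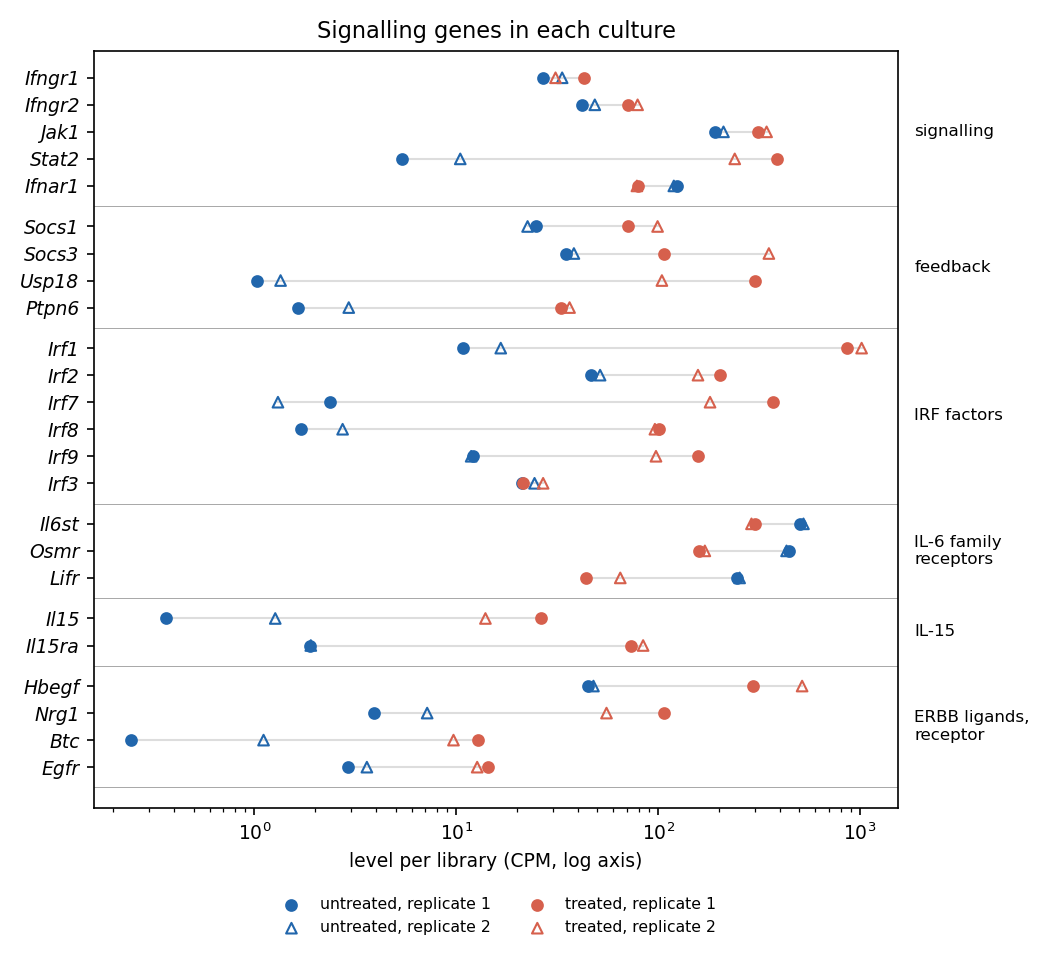
CPM of signalling genes in each of the 4 marrow cultures on a log axis; blue marks are untreated and red marks treated cultures, circles replicate 1 and open triangles replicate 2. Stat2, Irf1 and Irf8 stand far apart between the groups, Ifngr1 and Irf3 overlap, and the receptor genes Il6st, Osmr, Lifr and Ifnar1 lie lower in both treated cultures.

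Genes that sense foreign nucleic acid and act on it downstream were higher in most lists. In the list of nucleic acid sensors and their adaptors 13 of 18 genes were higher (median 3.04), in that of PARP and DTX enzymes, which attach ADP-ribose to proteins, 8 of 14 (median 1.65), and all 9 genes of Isg15 conjugation and linked ubiquitin ligases were higher (median 3.68). In the TRIM family, ubiquitin ligases several of which restrict viruses, 7 of 13 were higher, and in the Schlafen family, which restricts translation of viral RNA, 5 of 8. Of 11 genes of nuclear bodies 7 were higher. The cytosolic RNA sensor Ifih1 (MDA5) had 8.16 and 5.58 CPM without and 386 and 161 CPM with treatment (log2 change 5.33 ± 0.47, adjusted p = 0.000384), and Ddx58 (RIG-I) 17 and 21.4 CPM untreated and 408 and 222 CPM treated (log2 change 4.03 ± 0.29, adjusted p = 2.62e-05). Their adaptor Mavs was not called (33.5 and 34.8 CPM untreated and 44.9 and 32.8 CPM treated). Tmem173 (STING), the adaptor of DNA sensing, had 7.18 and 9.15 CPM untreated and 57.1 and 67.7 CPM treated (log2 change 2.93 ± 0.19, adjusted p = 7.20e-06), while the DNA sensor Mb21d1 (cGAS) was not called (5.3 and 3.49 CPM untreated and 13.3 and 8.3 CPM treated) except in the fit of the 4 marrow cultures (adjusted p = 0.0475, range over all settings 0.0475 to 0.542). Parp14, a cofactor of Stat6, had 8.16 and 4.71 CPM untreated and 1141 and 522 CPM treated (log2 change 7.03 ± 0.50, adjusted p = 0.000148), whereas Parp1, the DNA repair enzyme, had 50.3 and 57.8 CPM untreated and 61.4 and 54.3 CPM treated and was not called. Dtx3l, the ligase partner of Parp9, had 21.9 and 15.5 CPM untreated and 973 and 609 CPM treated. Rnf19b, a ubiquitin ligase, had 17.2 and 19.7 CPM untreated and 392 and 418 CPM treated (log2 change 4.45 ± 0.20, adjusted p = 7.66e-07). Pml, the scaffold of nuclear bodies, had 18.3 and 20.1 CPM untreated and 175 and 116 CPM treated, and its companion Sp100 1.58 and 2.73 CPM untreated and 215 and 97.1 CPM treated. Trim21, an antibody receptor inside cells, had 2.92 and 2.06 CPM untreated and 124 and 64.1 CPM treated, and Slfn2 1.4 and 1.07 CPM untreated and 201 and 123 CPM treated. The sensor list held 8 genes higher without untreated 1 and 8 without untreated 2, and the Schlafen list 3 without untreated 2.

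Antigen processing genes rose by large amounts in the inducible set and by small ones in the constitutive set. Of 9 genes of the immunoproteasome and its activators 6 were higher (median log2 fold change 2.92), and of 14 subunits of the constitutive proteasome core 7 were higher, with a median of 0.50. Psmb10, an inducible catalytic subunit, had 7.97 and 12 CPM without and 150.3 and 168 CPM with treatment (log2 change 3.98 ± 0.22, adjusted p = 2.49e-06). The activator subunit Psme1 had 60.9 and 80.2 CPM untreated and 464 and 640.4 CPM treated. Among the constitutive subunits Psma5 had 40.6 and 47.2 CPM untreated and 118 and 93.2 CPM treated (log2 change 1.27 ± 0.18, adjusted p = 0.000707). The constitutive count was 3 without untreated 1, 2 without untreated 2, 4 without early lesion 1 or early lesion 2 and 3 under upper quartile scaling. All 11 GBP genes were higher (median 7.25), and 10 of 12 genes of MHC class I chains and their regulator. B2m, the shared light chain, had 1377 and 1458 CPM untreated and 5668 and 9007 CPM treated, H2-K1 115 and 140.1 CPM untreated and 807 and 1147 CPM treated, and Nlrc5, the transactivator of class I genes, 20.6 and 25.3 CPM untreated and 128 and 127 CPM treated (log2 change 2.47 ± 0.23, adjusted p = 6.96e-05). Cd274 (PD-L1), which restrains T cells, had 43.5 and 13.4 CPM untreated and 603 and 426 CPM treated but was not called (adjusted p = 0.0762). It was called in 7 other settings, among them DESeq2 (adjusted p = 0.00666) and the fit without early lesion 2 (adjusted p = 0.0296, range over all settings 3.32e-73 to 0.389). Reads of GBP and class I genes that fit several near-identical copies may be left out or placed on the wrong one.

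The 2 treated cultures differed from each other by groups of genes. Over 9011 genes with at least 10 CPM after treatment the median log2 ratio of treated 1 to treated 2 was 0.01, with quartiles of -0.31 and 0.28. The called sensor genes had a median ratio of 0.88 (above 0 for 11 of 13), the PARP and DTX genes 0.70 (7 of 8), the TRIM genes 0.76 (6 of 6), the nuclear body genes 1.02 (6 of 7) and the Isg15 conjugation genes 0.74 (7 of 9). In the other direction lay the GBP genes at -0.37 (4 of 11 above 0) and the class I genes at -0.28 (2 of 10). Cxcl10 shows the first pattern, with 2635 and 922 CPM in treated 1 and 2, and B2m the second, with 5668 and 9007 CPM. Lowered matrix genes had also gone further down in treated 1: the ratio was -1.07 for 10 collagen genes (0 above 0) and -1.01 for 10 matricellular genes (1 above 0). This was not particular to matrix genes: the lowered histone genes lay at -0.61 (0 of 14 above 0), and the 170 genes lowered by at least 4-fold from 10 CPM or more lay at -0.32 (60 above 0). Macrophage markers were higher in treated 1, with a median ratio of 0.48 (16 of 17 above 0). With 1 library each this is a description of these 2 cultures, chosen after their values were seen, and it has no test.

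**Figure D3:**
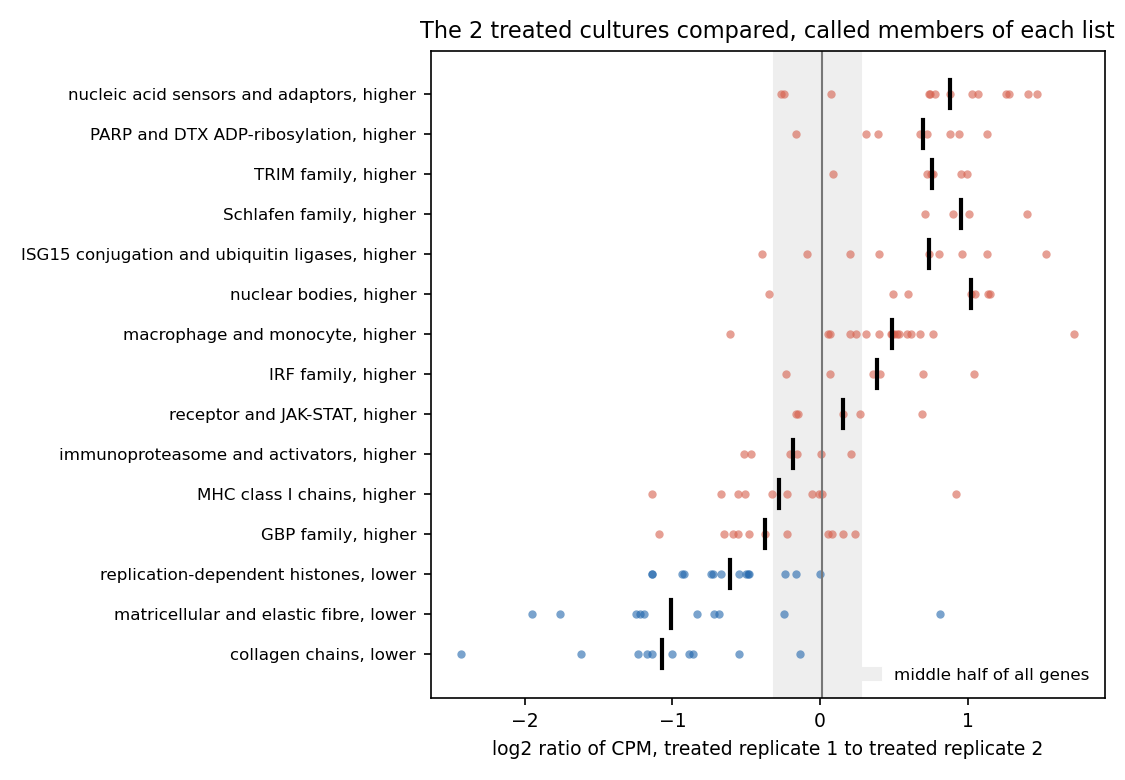
Log2 ratio of CPM in treated replicate 1 to treated replicate 2 for the called members of each list with at least 10 CPM (red, called higher; blue, called lower); black bars are list medians and the grey band runs between the quartiles of all genes. Sensor, PARP, TRIM, Schlafen, Isg15 and nuclear body genes lie mostly to the right of the band, and lowered collagen and matricellular genes to its left.

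Secreted signals and their receptors shifted. Of 28 chemokines 11 were higher and 1 lower. Ccl2, which draws monocytes, had 7.49 and 3.41 CPM without and 256 and 338 CPM with treatment (log2 change 5.80 ± 0.63, adjusted p = 0.00145), and the neutrophil chemokine Cxcl1 3.65 and 3.49 CPM untreated and 56.3 and 123 CPM treated. The lowered member was Cxcl12, the factor that holds blood stem cells in the marrow, with 85.1 and 119 CPM untreated and 25.2 and 21.4 CPM treated (log2 change -2.13 ± 0.24, adjusted p = 0.000216). Both chains of the interleukin-15 system, which presents its cytokine to NK and T cells, were higher: Il15ra had 1.89 and 1.9 CPM untreated and 73.1 and 84.2 CPM treated (log2 change 5.37 ± 0.30, adjusted p = 2.64e-06) and Il15 0.365 and 1.27 CPM untreated and 26.4 and 13.9 CPM treated. Il1rap, the shared chain of interleukin-1 receptors, fell from 170.0 and 164 to 44.7 and 47.1 CPM (log2 change -1.86 ± 0.15, adjusted p = 2.73e-05). Il4ra, a receptor chain for interleukins 4 and 13, rose from 13.2 and 13.7 to 57.4 and 63.7 CPM. In the TNF superfamily 9 of 28 genes were higher and 1 lower. Tnfrsf1b, the second TNF receptor, had 11.6 and 12.8 CPM untreated and 47.7 and 44.5 CPM treated (log2 change 1.92 ± 0.17, adjusted p = 4.53e-05), Tnfrsf12a, the receptor of TWEAK, 51.9 and 55.2 CPM untreated and 228 and 234 CPM treated, and the lowered Tnfrsf19 24.2 and 19.4 CPM untreated and 4.29 and 3.55 CPM treated. Without untreated 1 or treated 1 the higher count of this family was 5. Il18bp, the soluble trap for interleukin-18, had 1.34 and 0.99 CPM untreated and 105 and 109 CPM treated (log2 change 6.55 ± 0.29, adjusted p = 7.66e-07).

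In the interleukin-6 family the called ligands rose and the called receptors fell. Of 16 genes 2 were higher and 4 lower. Lifr, the receptor of Lif, had 246 and 253 CPM without and 43.7 and 64.9 CPM with treatment (log2 change -2.20 ± 0.21, adjusted p = 6.89e-05). Osmr, the receptor of oncostatin M, had 446 and 432 CPM untreated and 159 and 170.2 CPM treated (log2 change -1.42 ± 0.15, adjusted p = 0.000123), and Il6st (gp130), the signalling chain they share, 507 and 524 CPM untreated and 300.1 and 289.7 CPM treated (log2 change -0.81 ± 0.14, adjusted p = 0.00264). Il11ra1 had 18 and 18.4 CPM untreated and 4.62 and 6.38 CPM treated. All 4 receptor genes were lower in both treated cultures, and their calls held with each marrow culture left out. The ligand Lif had 2.01 and 2.5 CPM untreated and 36.6 and 85.8 CPM treated (log2 change 4.75 ± 0.42, adjusted p = 0.00016), and Il11 11.2 and 15.6 CPM untreated and 41.2 and 145 CPM treated. The Il11 call was lost without untreated 1 and without untreated 2 (adjusted p = 0.163 and 0.183, range 5.04e-25 to 0.183). It was also lost without TUBO 1 or TUBO 2 (adjusted p = 0.0655 and 0.0633), and in each of these 4 fits the higher count was 1.

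Part of the complement and lysosome genes rose, in the same cultures in which the summed macrophage markers were higher (196 and 193 CPM untreated, 2584 and 1896 CPM treated). Of 22 complement genes 7 were higher. C1qb had 13.4 and 14.5 CPM without and 282 and 194 CPM with treatment, but it is also one of the macrophage markers. C3 had 8.28 and 6.73 CPM untreated and 68.7 and 50.1 CPM treated. Cd59a, which protects cells from the membrane attack complex, fell from 16.6 and 12.9 to 1.39 and 2.5 CPM (log2 change -2.92 ± 0.30, adjusted p = 0.000104). Without untreated 1 the higher count was 2 and without untreated 2 it was 3, and C3 was lost in both (adjusted p = 0.06 and 0.105, range 3.66e-22 to 0.105). Of 27 lysosomal genes 10 were higher. Ctsc, the protease that activates granzymes, had 4.69 and 2.42 CPM untreated and 155 and 107 CPM treated (log2 change 5.24 ± 0.34, adjusted p = 1.83e-05), Ctsh 22.6 and 26 CPM untreated and 132 and 165 CPM treated, and Ctsb 353 and 374 CPM untreated and 795 and 824 CPM treated. The lysosomal count was 5 without untreated 1. Among cell surface molecules Bst2 (tetherin), which holds virus at the membrane, had 10.8 and 10.9 CPM untreated and 417 and 421 CPM treated (log2 change 5.27 ± 0.17, adjusted p = 1.74e-07), and Bst1, named from marrow stroma, 1.34 and 1.11 CPM untreated and 40.6 and 47.6 CPM treated. Cd200, a ligand that quiets macrophages, fell from 19.1 and 20 to 1.94 and 3.67 CPM (log2 change -2.81 ± 0.27, adjusted p = 0.000106).

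In metabolism, part of the genes of amino acid supply were lower and part of the antioxidant genes higher. Of 21 genes of serine, one-carbon and amino acid supply 9 were lower (median log2 fold change -0.58). Aldh1l2, a mitochondrial folate enzyme, had 462 and 477 CPM without and 75.5 and 104 CPM with treatment (log2 change -2.39 ± 0.18, adjusted p = 1.41e-05). Pycr1, which makes proline, had 50 and 44.9 CPM untreated and 5.31 and 11.4 CPM treated. Aldh18a1, an earlier enzyme of that route, had 303 and 317 CPM untreated and 112 and 154 CPM treated. Slc1a4, a transporter of neutral amino acids, had 114 and 115 CPM untreated and 28.5 and 36.4 CPM treated. Slc7a5, which carries large neutral amino acids, had 730.3 and 772 CPM untreated and 349 and 347 CPM treated, and the groups overlapped for neither transporter. The count was 15 under upper quartile scaling and 5 without untreated 1 and early lesion 2 together. Asns, asparagine synthetase, was not called (361 and 431 CPM untreated and 295 and 283 CPM treated), except in DESeq2 and under both other scalings and both stricter filters (adjusted p range 0.00441 to 1). Of 21 antioxidant and metallothionein genes 10 were higher. Txnrd1, thioredoxin reductase, had 269 and 254 CPM untreated and 698 and 575 CPM treated (log2 change 1.28 ± 0.18, adjusted p = 0.000647), Prdx1 215 and 275 CPM untreated and 525 and 619 CPM treated, and Gsr, glutathione reductase, 13.1 and 12 CPM untreated and 48 and 31.9 CPM treated. Slc7a11, the cystine transporter, fell, with 79.3 and 75.1 CPM untreated and 33.4 and 36.3 CPM treated (log2 change -1.15 ± 0.22, adjusted p = 0.00504). Pts, an enzyme of tetrahydrobiopterin synthesis, fell from 26.1 and 20 to 7.33 and 10.3 CPM, while Gch1, the first enzyme of that route, rose from 1.77 and 1.47 to 4.88 and 6.55 CPM. Of 77 cytosolic ribosomal proteins 0 were called in edgeR (3 had an unadjusted p under 0.05, and DESeq2 called 2 higher); without treated 1, 17 were called higher, and without treated 2, 4 lower. Of 60 subunits of oxidative phosphorylation 7 were higher, a share close to that of all genes tested. All 60 reached 5 CPM in a group, and the share was below that of genes at that level.

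Cell cycle genes moved in different directions. Ccnd1, the cyclin that drives entry into the cycle, had 343 and 404 CPM without and 2760 and 2156 CPM with treatment (log2 change 2.72 ± 0.21, adjusted p = 1.74e-05). Its partner kinase Cdk6 had 28.4 and 30.2 CPM untreated and 102 and 91.1 CPM treated (log2 change 1.72 ± 0.18, adjusted p = 0.000121). Both genes were higher in each treated culture than in either untreated one. Cdkn1a (p21), an inhibitor of cyclin-dependent kinases, had 186 and 174 CPM untreated and 382 and 345 CPM treated (log2 change 1.01 ± 0.14, adjusted p = 0.000816). Rbl1, a pocket protein that restrains E2F factors, had 10.2 and 14 CPM untreated and 47.3 and 32.7 CPM treated. In the list of G1 cyclins, E2F factors and CDK inhibitors 8 of 31 genes were higher and 4 lower. Myc was not called (710.0 and 627 CPM untreated and 872 and 778 CPM treated). Of 58 replication-dependent histone genes 21 were lower (median -0.93). Hist2h4 had 346 and 217 CPM untreated and 30.7 and 34.3 CPM treated (log2 change -3.12 ± 0.24, adjusted p = 1.66e-05), and Hist1h4h 108 and 116 CPM untreated and 40.2 and 67.1 CPM treated. These genes are near-identical copies whose messages mostly lack a poly(A) tail, and the sources used here do not say how the library kit captures them. The histone count was 12 without untreated 2, and the list of G1 genes held 5 higher and 1 lower without untreated 1 and 6 and 1 without untreated 2. Mki67, a marker of cycling cells, was not called (209.9 and 313 CPM untreated and 85.4 and 166 CPM treated, adjusted p = 0.0592), but it was called lower without treated 2 (adjusted p = 0.00708), in DESeq2 (0.00271) under upper quartile scaling (0.0244) and in 4 other settings (range 8.06e-06 to 0.676). Hmga2, a chromatin protein of embryonic and tumour cells, had 127 and 124 CPM untreated and 2007 and 1396 CPM treated (log2 change 3.76 ± 0.21, adjusted p = 2.32e-06), against 6.6 to 24.9 CPM in the early lesion and TUBO libraries.

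Growth factor genes changed on several axes. Of 15 genes of ERBB receptors and their ligands 8 were higher. Hbegf had 44.9 and 47.8 CPM without and 296 and 516 CPM with treatment (log2 change 3.13 ± 0.25, adjusted p = 2.53e-05). Nrg1, a ligand of Erbb3 and Erbb4, had 3.9 and 7.17 CPM untreated and 107 and 55.4 CPM treated (log2 change 3.85 ± 0.43, adjusted p = 0.000516), and Btc 0.243 and 1.11 CPM untreated and 12.8 and 9.68 CPM treated. The receptor Egfr had 2.92 and 3.6 CPM untreated and 14.3 and 12.7 CPM treated (log2 change 2.04 ± 0.23, adjusted p = 0.0002). Errfi1, which inhibits Egfr, had 139 and 141 CPM untreated and 559.7 and 638 CPM treated. Erbb2, the receptor HER2, had 21.2 and 23.3 CPM untreated and 35 and 39 CPM treated, a call lost without untreated 1 (adjusted p = 0.0586, range 2.27e-05 to 1). Of 19 YAP and TEAD targets and cofactors 12 were higher. Ctgf had 195 and 275 CPM untreated and 584 and 1054 CPM treated (log2 change 1.80 ± 0.30, adjusted p = 0.00377), and Crim1 41.6 and 45.1 CPM untreated and 115 and 107 CPM treated, while the cofactor gene Tead2 fell from 98.9 and 102 to 39.6 and 58.4 CPM. The YAP count was 5 without untreated 1 and 6 without untreated 2.

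The BMP ligand genes Bmp2 and Bmp7 rose and the FGF receptor genes Fgfr2 and Fgfr3 fell. Of 54 genes of TGF-beta and BMP signalling 12 were higher and 3 lower. Bmp2, a ligand that drives bone formation, had 39 and 35.9 CPM without and 435 and 567 CPM with treatment (log2 change 3.74 ± 0.28, adjusted p = 2.76e-05), and Bmp7 19.4 and 23.4 CPM untreated and 279 and 249 CPM treated (log2 change 3.63 ± 0.17, adjusted p = 1.09e-06). Smad7, the inhibitory Smad, had 34.1 and 28.8 CPM untreated and 100.3 and 115 CPM treated, and Chrdl1, a secreted BMP antagonist, fell from 87.1 and 97.1 to 5.28 and 9.64 CPM (log2 change -3.63 ± 0.34, adjusted p = 9.43e-05). Of 34 genes of the FGF, PDGF, VEGF and HGF families 7 were higher and 5 lower. Fgfr2 had 133 and 137 CPM untreated and 8.87 and 9.47 CPM treated (log2 change -3.88 ± 0.26, adjusted p = 9.25e-06), and Fgfr3 27.5 and 32.6 CPM untreated and 2.16 and 2.79 CPM treated. The feedback inhibitors Spry1 and Spry2 went opposite ways, from 137 and 118 to 6.16 and 9.18 CPM and from 20.1 and 17.6 to 108 and 141 CPM. Met, the HGF receptor, had 9.13 and 9.78 CPM untreated and 46.1 and 34.5 CPM treated (log2 change 2.09 ± 0.20, adjusted p = 7.09e-05).

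Wnt and insulin-like growth factor genes were called lower more often than higher. Of 52 Wnt pathway genes 11 were lower and 5 higher. Wif1, a secreted Wnt inhibitor, had 89.4 and 84 CPM without and 6.34 and 5.88 CPM with treatment (log2 change -3.82 ± 0.41, adjusted p = 0.000307). Lrp4, a receptor of sclerostin on bone cells, had 123 and 117 CPM untreated and 12.4 and 12.9 CPM treated (log2 change -3.24 ± 0.20, adjusted p = 4.95e-06), and Rspo3, which amplifies Wnt signals, 102 and 99 CPM untreated and 15.2 and 33.7 CPM treated. Fzd5 and Fzd8, Wnt receptors, fell from 144 and 165 to 47.5 and 71.3 CPM and from 44.1 and 49.4 to 20 and 22.1 CPM. The raised members included Znrf3, which removes Wnt receptors from the surface, with 17.3 and 16.8 CPM untreated and 41.6 and 31 CPM treated. Of 20 genes of insulin-like growth factors 4 were lower and 2 higher. Igfbp4 had 428 and 426 CPM untreated and 82.8 and 118 CPM treated (log2 change -2.09 ± 0.23, adjusted p = 0.000222), Irs1, the adaptor of the receptor, 386 and 449 CPM untreated and 173 and 128 CPM treated, and its relative Irs2 rose from 8.83 and 8.71 to 17.3 and 24.8 CPM. The higher Wnt count was 2 without untreated 1, and the list of insulin-like growth factors then held 2 lower and 1 higher.

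Genes of bone formation were lower in part. Of 25 osteoblast factors and mineralisation genes 8 were lower (median log2 fold change -2.07). Runx2 changed by -2.07 ± 0.18 (adjusted p = 4.53e-05). Alpl, the alkaline phosphatase of mineralising cells, had 1382 and 1476 CPM without and 43.5 and 79.5 CPM with treatment (log2 change -4.54 ± 0.32, adjusted p = 2.80e-05), and Ibsp, bone sialoprotein, 410.5 and 633 CPM untreated and 7.29 and 4.34 CPM treated (log2 change -6.48 ± 0.62, adjusted p = 0.000823). The factor Dlx5 had 88.9 and 98.7 CPM untreated and 6.96 and 5.96 CPM treated, and Phospho1, which frees phosphate for mineral, 131 and 124 CPM untreated and 9.86 and 17.1 CPM treated. Spp1, osteopontin, was not called, with 13477 and 18834 CPM untreated and 9921 and 24886 CPM treated and overlapping groups, but it was called lower without treated 2 (adjusted p = 0.0486, range 0.0486 to 1). Sp7, the factor downstream of Runx2, was not called either (190.2 and 208 CPM untreated and 13.9 and 51.5 CPM treated, adjusted p = 0.0634), except under upper quartile scaling, in the fit of the 4 marrow cultures and under other filters (range 2.85e-30 to 0.376). Sgms2, a sphingomyelin synthase, rose from 11.6 and 13.1 to 107 and 151 CPM (log2 change 3.38 ± 0.20, adjusted p = 3.99e-06). The lowered count was 5 without untreated 1, without untreated 2 or without treated 1. Of 29 genes of the marrow niche 7 were higher and 3 lower, or 5 lower without treated 2. Angpt1 fell from 101 and 137 to 17.4 and 26.8 CPM and Foxc1 from 229 and 219 to 75.4 and 109.8 CPM, while Nes, an intermediate filament of niche cells, rose from 15.8 and 20.8 to 143 and 129 CPM (log2 change 2.89 ± 0.19, adjusted p = 7.99e-06) and Lepr from 8.4 and 6.57 to 22.5 and 27.8 CPM. Cd44, the hyaluronan receptor, had 294 and 282 CPM untreated and 1044 and 1031 CPM treated (log2 change 1.85 ± 0.17, adjusted p = 4.96e-05).

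Matrix genes were called lower more often than higher. Of 44 collagen chains 13 were lower, and of 38 matricellular and elastic fibre genes 10. Tnc, tenascin C, had 3246 and 3354 CPM without and 107 and 176 CPM with treatment (log2 change -4.54 ± 0.26, adjusted p = 2.95e-06). Col1a1 had 3900 and 4274 CPM untreated and 379 and 555 CPM treated (log2 change -3.13 ± 0.37, adjusted p = 0.000611), and Col4a1, of basement membranes, 155 and 165 CPM untreated and 42 and 76.5 CPM treated. Plod2, which prepares collagen for cross-links, had 469 and 475 CPM untreated and 126 and 223 CPM treated. Fn1 was not called (log2 change -0.76 ± 0.38, adjusted p = 0.185), but it was called lower without treated 2 (adjusted p = 7.14e-05) and with no filter (range 7.14e-05 to 1). The matricellular count was 4 without untreated 2. Genes of matrix breakdown went both ways, with 10 of 42 higher and 7 lower. The urokinase receptor Plaur had 17.5 and 11.4 CPM untreated and 158 and 165 CPM treated (log2 change 3.49 ± 0.24, adjusted p = 1.05e-05), its ligand Plau 5.17 and 8.59 CPM untreated and 33.1 and 40.7 CPM treated, and Adam8 8.95 and 6.34 CPM untreated and 65.9 and 55.8 CPM treated. Mmp2, a gelatinase, fell from 165 and 196 to 38.7 and 71.7 CPM (log2 change -1.71 ± 0.26, adjusted p = 0.00149). The higher count of this list was 5 without untreated 1, without untreated 2 and under upper quartile scaling, and the lower count was 12 without treated 2. Of 63 guidance genes (semaphorins, ephrins, slits and their receptors) 9 were higher, near the background, and 13 lower, or 9 lower without untreated 1, 8 without untreated 2 and 21 in the fit of the 4 marrow cultures. They included Epha2, an ephrin receptor, with 50.3 and 62.9 CPM untreated and 268 and 294 CPM treated (log2 change 2.31 ± 0.16, adjusted p = 1.03e-05), and Plxnb1, a semaphorin receptor, with 49.7 and 34.9 CPM untreated and 7.51 and 8.18 CPM treated (log2 change -2.43 ± 0.22, adjusted p = 4.54e-05). Of 26 integrin genes 6 were higher and 4 lower, or 2 higher without untreated 1 or untreated 2. Itga6, a laminin receptor chain, rose from 4.2 and 4.28 to 40.1 and 35.9 CPM (log2 change 3.16 ± 0.18, adjusted p = 2.44e-06). In the prostaglandin list 4 of 20 genes were higher and 3 lower, or 2 and 1 without untreated 2. Ptges, the inducible synthase of prostaglandin E2, had 27.6 and 35.5 CPM untreated and 171 and 189 CPM treated (log2 change 2.51 ± 0.31, adjusted p = 0.000711), and Slco2a1, which takes prostaglandins up, 6.03 and 5.86 CPM untreated and 87 and 67.6 CPM treated.

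**Figure D4:**
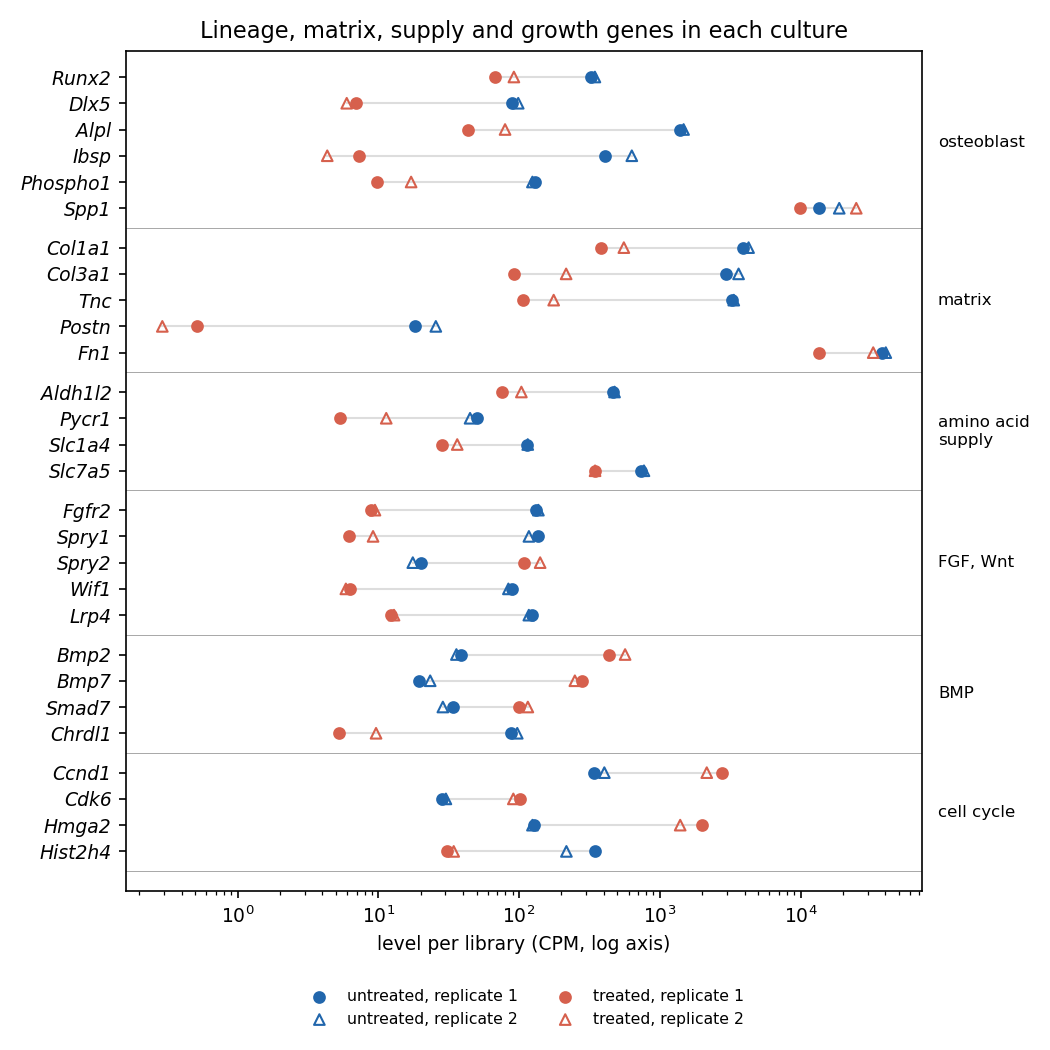
CPM of osteoblast, matrix, amino acid supply, FGF and Wnt, BMP and cell cycle genes in each of the 4 marrow cultures on a log axis; blue marks are untreated and red marks treated cultures, circles replicate 1 and open triangles replicate 2. Untreated and treated marks are apart for each gene shown except Spp1, and Bmp2, Bmp7, Spry2, Smad7, Ccnd1, Cdk6 and Hmga2 lie higher after treatment.

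**Figure D5:**
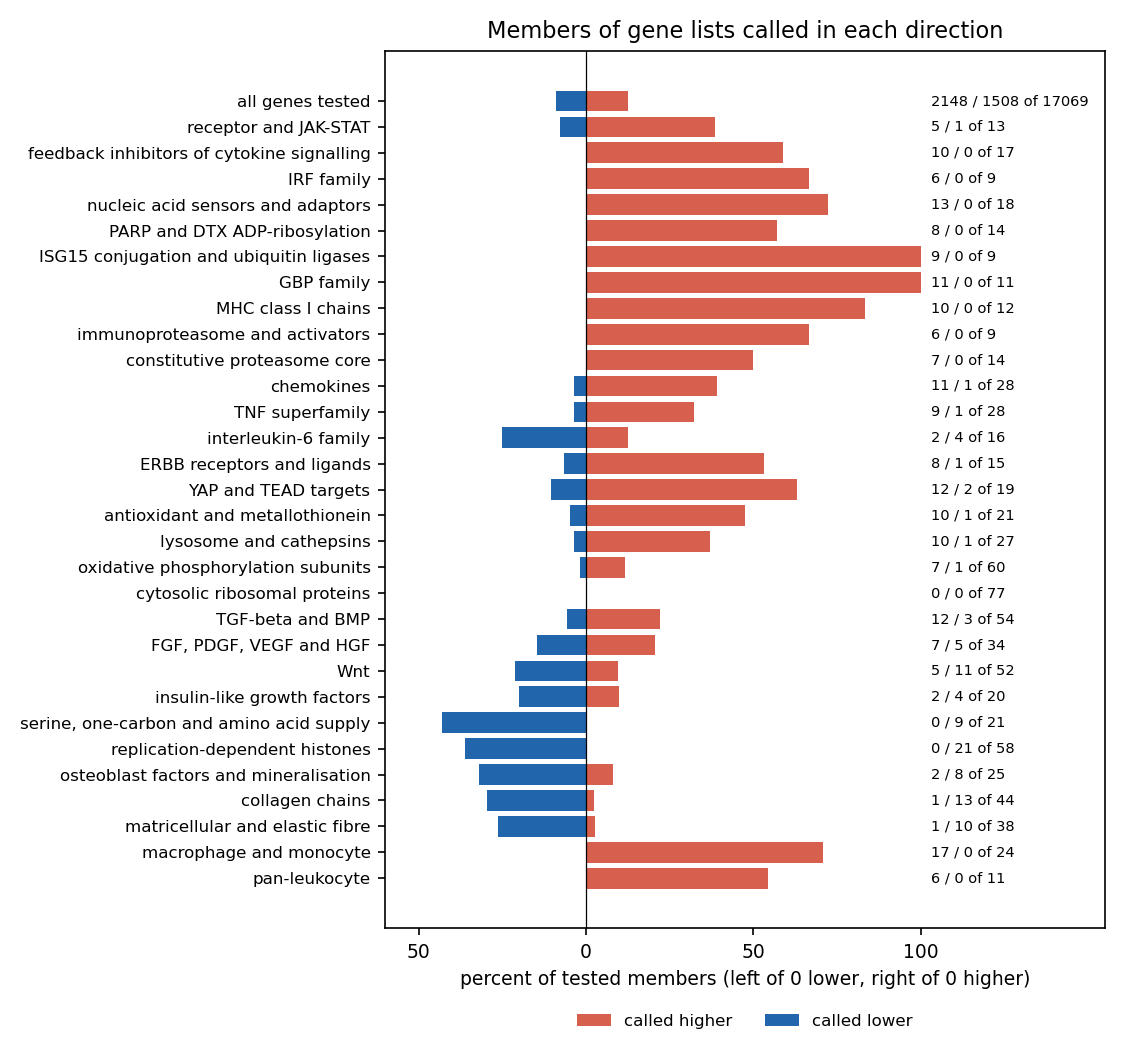
Percent of the tested members of each gene list that were called higher (red, right of 0) or lower (blue, left of 0) in treated cultures, with the numbers at the right as higher / lower of tested. The top bar is the background of all 17069 genes, 12.6% higher and 8.83% lower; lists of the interferon response lie to the right, and those of amino acid supply, histones, bone and matrix to the left.

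Part of the raised genes sat side by side in the genome. Of 523 genes called higher by at least 4-fold and placed in GENCODE M21 (GRCm38), 60 lay in 11 runs of at least 4 such genes with gaps of at most 100 kb. Runs are built from called genes alone, so their members are called by design. How often tested genes in general lie this close was not counted. On chromosome 3, from 142493978 to 142638008, all 5 placed genes (Gbp5, Gbp7, Gbp3, Gbp2b and Gbp2) were called. The same held on chromosome 5, from 105014150 to 105346472, for all 6 (Gbp8, Gbp9, Gbp4, Gbp10, Gbp6 and Gbp11). On chromosome 1, from 173747293 to 174031810, the run held the 5 Ifi200 genes Ifi204, Mndal, Ifi203, Ifi202b and Ifi205. On chromosome 11, from 82951349 to 83070678, it held the Schlafen genes Slfn5, Slfn9, Slfn8, Slfn10-ps and Slfn2. On chromosome 17, from 34143307 to 34344645, 10 of 12 placed genes were called, among them Psmb9, Tap1, Psmb8, Tap2 and the class II genes H2-Ab1 and H2-Aa. On chromosome 19, from 34473778 to 34650009, the lipase gene Lipa lay among Ch25h, Ifit2, Ifit3 and Ifit1 and rose with them by less, from 27.6 and 33.2 to 101 and 76.5 CPM (log2 change 1.54 ± 0.22, adjusted p = 0.00081). Without untreated 2 the calls of Gbp5, Gbp10 and H2-Ab1 were lost (adjusted p = 0.0507, 0.0943 and 0.0547, ranges 5.17e-139 to 0.0507, 1.33e-124 to 0.0943 and 2.51e-23 to 0.0547), and those of Slfn5 and Ifi204 without untreated 1 or untreated 2 (adjusted p = 0.0575 and 0.139, range 5.29e-31 to 0.139, and 0.0578 and 0.109, range 1.20e-48 to 0.109). The Ch25h call was lost without untreated 1, untreated 2 or treated 1 (adjusted p = 0.0679, 0.0954 and 0.0624) and in DESeq2 (adjusted p = 0.124, range 1.10e-26 to 0.124). Other runs enclosed tested genes that were not called. On chromosome 17, 6 of 13 tested genes were called from 35170991 to 35397800, and 5 of 7 from 35994453 to 36121465. On chromosome 11 it was 6 of 9 from 48861968 to 49096974, and on chromosome 5 it was 4 of 6 from 120730333 to 120907521. On chromosome 18, from 60212080 to 60392634, all 4 were called. With gaps of at most 50 kb there were 6 runs with 32 genes. Most of the genes named in these runs belong to families of copies, and reads that fit several copies may be left out or placed on the wrong one.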

How the data were processed

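RNA of 8 mouse libraries was sequenced, 2 per group. Per the submitters' processing notes the authors used TopHat, HTSeq 0.6.1 and the mm10 build; the sources used here do not say whether reads were counted by strand. The deposited table holds the authors' whole-number read counts for 23478 gene lines, with no normalization. Its 5 closing lines, of reads not assigned to a gene, were left out of all gene totals and tests. Spreadsheet dates had replaced 27 gene names and made 2 of them repeats.

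Counts were fitted with edgeR 4.0.16 in R 4.3.3 (robust quasi-likelihood test, TMM scaling, filterByExpr with a minimum count of 10) on all 8 libraries with 4 group means, which leaves 4 residual degrees of freedom. Genes with a Benjamini-Hochberg adjusted p under 0.05 were called. CPM scale each count to the library's gene counts times its TMM factor, with no length correction; fold changes are treated against untreated with their standard errors. With 2 cultures a group, a permutation test of 1 gene could not go below p = 0.333, so every test shares the spread across genes and groups. On simulated counts of this comparison (15786 genes) 20% of genes changed 2-fold and 69% of those changed 4-fold were called, so genes not called may still differ. A floor of 3 counts equals 0.110 to 0.183 CPM in these 4 libraries and covers counting error only. Replicate libraries differed by more than counting noise (chi-square per degree of freedom 17.4 untreated, 160 treated), so none was a copy.

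Alternatives were DESeq2 1.42.0, other scalings and filters, a fit of the 4 marrow cultures, a test against a 2-fold change, a replicate block and each library left out. The gene lists and the members described were chosen with earlier results of these data known; 1 gene is not reported here and was left out of its list. Genes were named by rule: the largest changes in each direction that held with each culture left out, the largest called and the most abundant uncalled members of each list, a fixed panel and the most abundant genes changed at least 4-fold. Of the 221 genes named, 55 lie outside that rule and were chosen after their values were seen: C3, Ccl2, Cd68, Cdh1, Cdk6, Crim1, Csf1r, Ctsb, Cxcl1, Ddx58, Epha2, Erbb3, Erbb4, Errfi1, Fgfr3, Foxc1, Fzd5, Fzd8, Gbp10, Gbp11, Gbp2, Gbp6, Gbp7, Gbp8, Gbp9, H2-Ab1, H2-K1, Hist1h4h, Ifi202b, Ifi203, Ifi204, Ifit1, Ifit2, Il4ra, Mb21d1, Mmp2, Mndal, Mrc1, Nlrc5, Oas1a, Phospho1, Plau, Pml, Prdx1, Ptpn1, Slc7a5, Slfn10-ps, Slfn5, Smad7, Socs6, Tap2, Tmem173, Tnfrsf1b, Tpm1, Txnrd1. Promoter windows are those of RefSeq (250 bases before to 50 after a start).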

Additional observations from a re-analysis of the deposited data

How the results depend on the processing

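In no setting run did a called gene named here change sign, and 146 of 196 called genes passed in every setting. The remaining calls were lost mostly in the test against a 2-fold change (40 genes), without untreated 1 and early lesion 2 together (18), without untreated 2 (14) and without untreated 1 (13). The 2148 genes higher and 1508 lower became 570 and 327 in the test against a 2-fold change and 1017 and 637 without untreated 1 and early lesion 2, and ran from 1193 to 2500 and from 827 to 1628 with 1 library left out at a time. DESeq2 gave 2355 and 2255 and no adjusted p for 7301 genes, upper quartile scaling 1526 and 2221, no filter 2466 and 2208, and the fit of the 4 marrow cultures 2042 and 2242. Of genes changed at least 2-fold, 1251 were higher (1004 to 1322 with 1 library left out) and 1040 lower (713 to 1137); the lower count was 1625 in DESeq2, 1888 in the fit of the 4 marrow cultures, 1599 with no filter and 614 without untreated 1 and early lesion 2. The causes of these shifts were not tested. Limits of 0.5 and 5 CPM gave 26 genes switched on and 14 off, in place of 33 and 10, and gaps of at most 50 kb left 6 runs of 11.

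With the replicate number as a block 2061 genes were higher and 1420 lower, and among the called genes named here Cyr61 was lost (adjusted p = 0.078). The deviations of same-numbered untreated and treated cultures correlated at r = 0.124 across 17069 genes, and with 2 pairs the numbers are not taken as pairs. Genes that were not called and changed sign were Irf3 (log2 fold change -0.12 under upper quartile scaling, -0.018 without untreated 1 and early lesion 2, -0.056 to 0.238 with 1 library left out), Jak2 (-0.023 under upper quartile scaling), Mavs (-0.0068 under upper quartile scaling, -0.056 to 0.439 with 1 library left out), Parp1 (-0.098 under upper quartile scaling, -0.0016 without untreated 1 and early lesion 2) and Spp1 (-0.096 under upper quartile scaling, -0.116 without untreated 1 and early lesion 2, -0.66 to 0.626 with 1 library left out). Shares of called genes that hold a promoter motif were computed but are not given or read, since too few called genes had a window. Low counts in untreated 1 limit what can be said of genes under 5 CPM.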

Other observations

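Some genes lay in lists whose counts were near the background of 12.6% higher and 8.83% lower. Of 21 Notch pathway genes 3 were higher and 2 lower. Hes1, a repressor that Notch switches on, had 10.4 and 10.5 CPM in the untreated and 43.3 and 38.8 CPM in the treated cultures (log2 change 1.97 ± 0.17, adjusted p = 3.22e-05), whereas Hey1, a target of the same pathway, had 6.27 and 4.71 CPM and 0.586 and 0.918 CPM (log2 change -2.86 ± 0.25, adjusted p = 3.89e-05). The receptor Notch1 rose from 37.9 and 42.9 to 103 and 198 CPM (log2 change 1.90 ± 0.28, adjusted p = 0.0017). Of 20 adipocyte genes 3 were higher and 2 lower (median log2 fold change -0.36), with 5 lower in the fit of the 4 marrow cultures. Over the 13 of them with at least 5 CPM in a group the median was -0.05. Plin2, the coat of lipid droplets, went from 19.8 and 20.1 to 112 and 67.7 CPM and Pnpla2, the lipase that empties them, from 18 and 22.9 to 77.7 and 71.3 CPM (log2 change 1.86 ± 0.18, adjusted p = 9.33e-05). Npc2, which carries cholesterol out of lysosomes, went from 179 and 204 to 511 and 729 CPM (log2 change 1.70 ± 0.19, adjusted p = 0.000189). Its list, of cholesterol efflux and oxysterol genes, lay above the background, with 4 of 12 higher and 0 lower. Klf15, a factor of fat and muscle cells, fell from 25.4 and 37.2 to 2.64 and 4.09 CPM.

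Contractile genes went both ways, with 7 of 26 called lower and 3 higher. Of the 19 with at least 5 CPM in a group, 5 were lower and 3 higher. The lower count was 12 under upper quartile scaling. Tpm1, a tropomyosin, had 383 and 420.4 CPM in the untreated and 149 and 164 CPM in the treated cultures (log2 change -1.36 ± 0.15, adjusted p = 0.000202), and Lmod1, which starts actin filaments in smooth muscle, had 8.95 and 11.4 CPM and 0.733 and 0.834 CPM (log2 change -3.70 ± 0.50, adjusted p = 0.000587). Of 20 channel and carrier genes 4 were higher and 2 lower (median log2 fold change -1.83), with 8 lower in the fit of the 4 marrow cultures. Over the 12 of them with at least 5 CPM in a group the median was -0.34, with 4 higher and 2 lower. The potassium channel gene Kcnn4 rose from 9.98 and 11.4 to 110.4 and 90.3 CPM (log2 change 3.23 ± 0.17, adjusted p = 1.83e-06) and Kcnk2 fell from 32.1 and 26.1 to 4.25 and 6.09 CPM (log2 change -2.49 ± 0.30, adjusted p = 0.000307). Of 35 tested Hox genes, which keep a record of body position, 1 was called lower, and of 28 DNA repair genes 2 were called higher, both shares being under the 12.6% and 8.83% of all genes.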
